A study of Rattus norvegicus with 4 samples.

Results

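Circular RNAs (circRNAs) of 4 host genes known for their circRNAs, Hipk3, Homer1, Spidr and Atrnl1, were described in rat sciatic nerve after crush and after sham surgery. A circRNA was counted here when the deposited tables named 1 of these 4 genes as its host, which gave 23 of the 4942 circRNAs of the series: 13 of Atrnl1, 6 of Spidr, 3 of Hipk3 and 1 of Homer1. The animals were Sprague-Dawley rats at postnatal week 6, and every library was made from total RNA of nerve taken 24 h after surgery. In the crush group (2 libraries) 3 mm of nerve was crushed 2 times, each for 15 s and 3 s apart, and the crushed stretch was taken with 1 mm of nerve at both ends. In the sham group (2 libraries) the nerve was exposed and not crushed. Nothing in the labels ties the libraries to separate animals. P-values therefore reflect only how these libraries spread, and that spread may be technical.

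A circRNA forms when the splicing machinery joins a downstream donor site to an upstream acceptor site, a back-splice, so that 1 or more exons close into a ring without free ends. Rings resist exonucleases and can outlast the linear mRNA of the same gene, and many are abundant in neural tissue. Each read counted here crosses a back-splice, so a circRNA's count does not grow with its length, while the sum for a host gene adds up all its back-splices. Linear mRNA of the hosts was not analysed here.

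The 4 genes have unrelated proteins. Hipk3 (ENSRNOG00000011358) encodes a homeodomain-interacting protein kinase, and a circRNA made of the second exon of human HIPK3 is among the best known of human cells. Homer1 (ENSRNOG00000047014) encodes a scaffold that ties glutamate receptors to intracellular calcium channels at synapses, and its circRNA is known from mouse and human brain. Spidr (ENSRNOG00000037851) encodes a scaffold that in human cells works with the helicase BLM in DNA repair by homologous recombination. Atrnl1 (ENSRNOG00000017406) encodes a membrane protein related to attractin.

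The libraries held 8250 and 9027 reads over back-splice junctions in crushed nerve and 9018 and 8726 in sham nerve. No circRNA had a listed count of 1. A 0 therefore means that the authors' caller did not report the circRNA in that library, and it can hide a read. Levels are given in SRPBM, the authors' signal, which is the read count times 1 constant per library. Hosts that mark Schwann cells, myelin or neurons gave few or no circRNAs in this tissue: of 14 Schwann cell and myelin markers 12 had no reads, Sox10 among them, and of 8 neuron markers all 8 had none. Skeletal muscle markers (5 of 12 with reads) summed to 76 and 84 reads in crushed nerve against 207 and 235 after sham, with Ckm, Acta1 and Ttn at 0. Of these reads Mlip alone held 76 and 79 against 204 and 226. Of the other markers Myh1 had reads after sham only and Ryr1 after crush only. Leukocyte markers (7 of 12 with reads) summed to 67 and 52 reads against 0 and 2, with Cd68, Adgre1 and Lyz2 at 0. The part of these cell types in the values below was not tested. In a whole tissue, fewer cells of a type and less RNA per cell cannot be told apart.

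Among the 4 genes, Spidr gave the most junction reads and Homer1 the fewest. Summed over the 4 libraries, Spidr had 322 reads (rank 4 of 2327 host genes), Atrnl1 136 (rank 17), Hipk3 118 (rank 23) and Homer1 47 (rank 111). Together they took 1.55% (95% exact binomial interval 1.30% to 1.84%) and 2.03% (1.75% to 2.34%) of all junction reads in crushed nerve, and 1.63% (1.38% to 1.91%) and 1.89% (1.62% to 2.20%) in sham nerve. The groups overlapped, and their mean shares lay closer together than the shares of the 2 crush libraries. Spidr lay above the other 3 genes in every library. Atrnl1 lay above Hipk3 in each crush library (39 and 42 reads against 24 and 36), but their sham values overlapped (25 and 30 against 28 and 30), so these neighbours were not separated in sham nerve. Homer1 was the lowest of the 4 in every library.

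The genes differed in how their reads were spread over circRNAs. Homer1 had a single circRNA. The dominant circRNA, the one with the most reads over the 4 libraries, held 90.7% of the reads of Hipk3 and 87.9% of those of Spidr, but only 25% of those of Atrnl1. Among the 98 host genes with at least 40 reads and at least 3 circRNAs, the median of this share was 61.5%, and 6.12% of them had a lower share than Atrnl1. Of the 23 circRNAs, 19 (82.6%) shared a back-splice end with another circRNA of the same gene. Over all 4942 circRNAs, 43.0% shared an end with another on the same strand. The 19 were 12 of Atrnl1, 5 of Spidr and 2 of Hipk3. The 2 shares are not like for like, since 62.2% of 2327 host genes had 1 circRNA and so no other of their own to share with. The files classed 19 of the 23 as exonic and 4 as intronic.

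**Figure D1:**
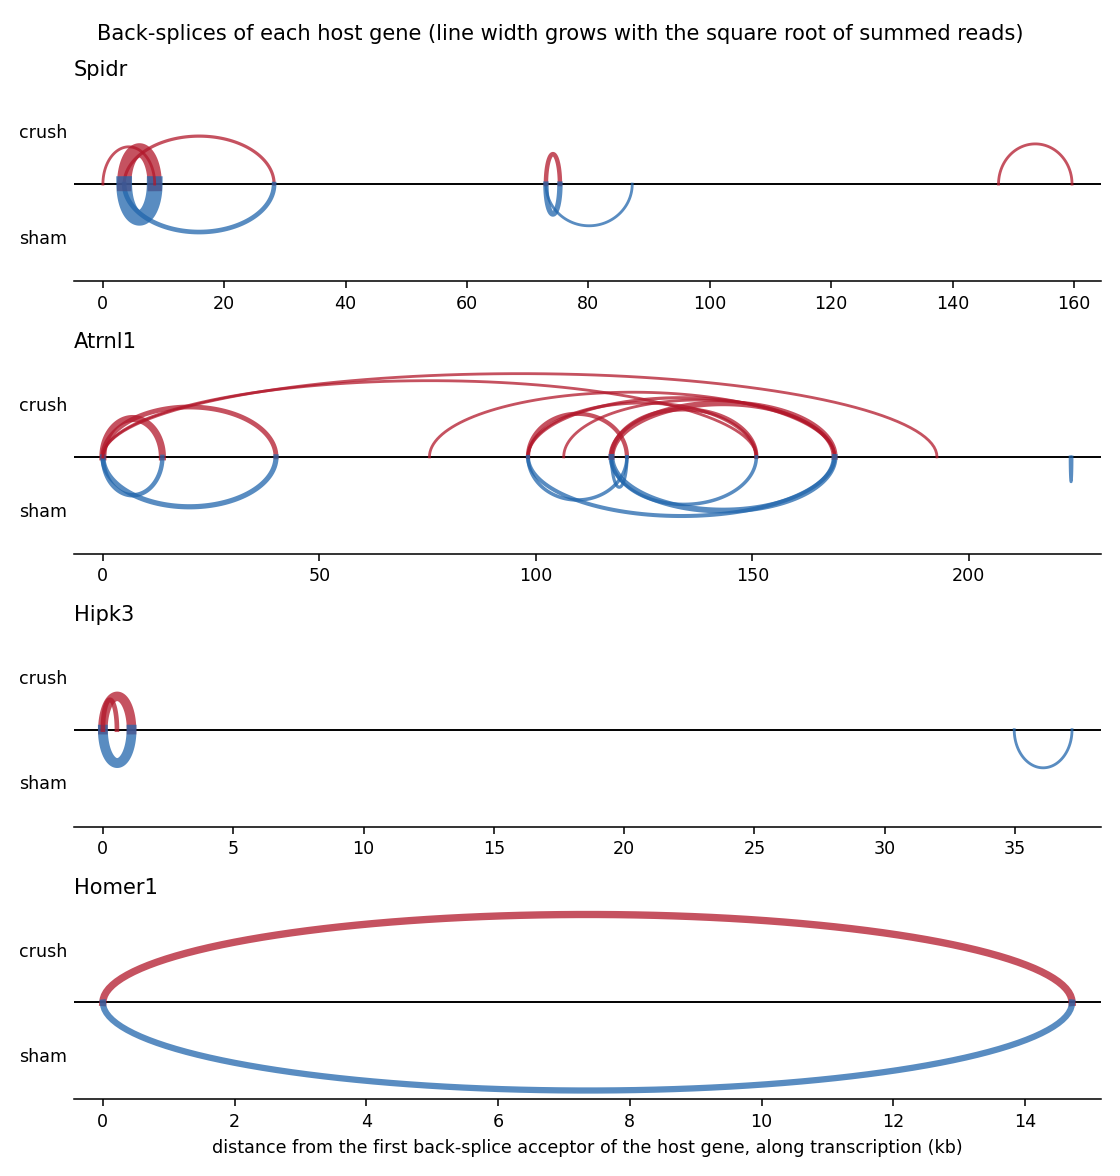
Back-splices of the 4 host genes, drawn as arcs from acceptor to donor over the distance from the gene's first acceptor in kb, with crush reads above the line and sham reads below it (line width grows with the square root of reads summed over 2 libraries). Spidr, Hipk3 and Homer1 each had a dominant arc, while 4 of the 13 arcs of Atrnl1 started at its first acceptor and the other 9 at acceptors at least 75415 bases further on.

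Of the 23 circRNAs, 7 were called in all 4 libraries (30.4%, against 6.13% of all circRNAs) and 11 in a single library (47.8%, against 72.6% of all circRNAs), none of these with more than 3 reads. The 11 were 7 of Atrnl1, 3 of Spidr and 1 of Hipk3, and they comprised 7 seen only after crush, 5 of them in crush replicate 2, and 4 seen only after sham. The same 7 circRNAs that were called in all libraries were those with at least 5 reads in at least 2 libraries, the filter of the test. They held 547 of the 623 reads, and the other 16 had at most 9 reads in any library.

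**Figure D2:**
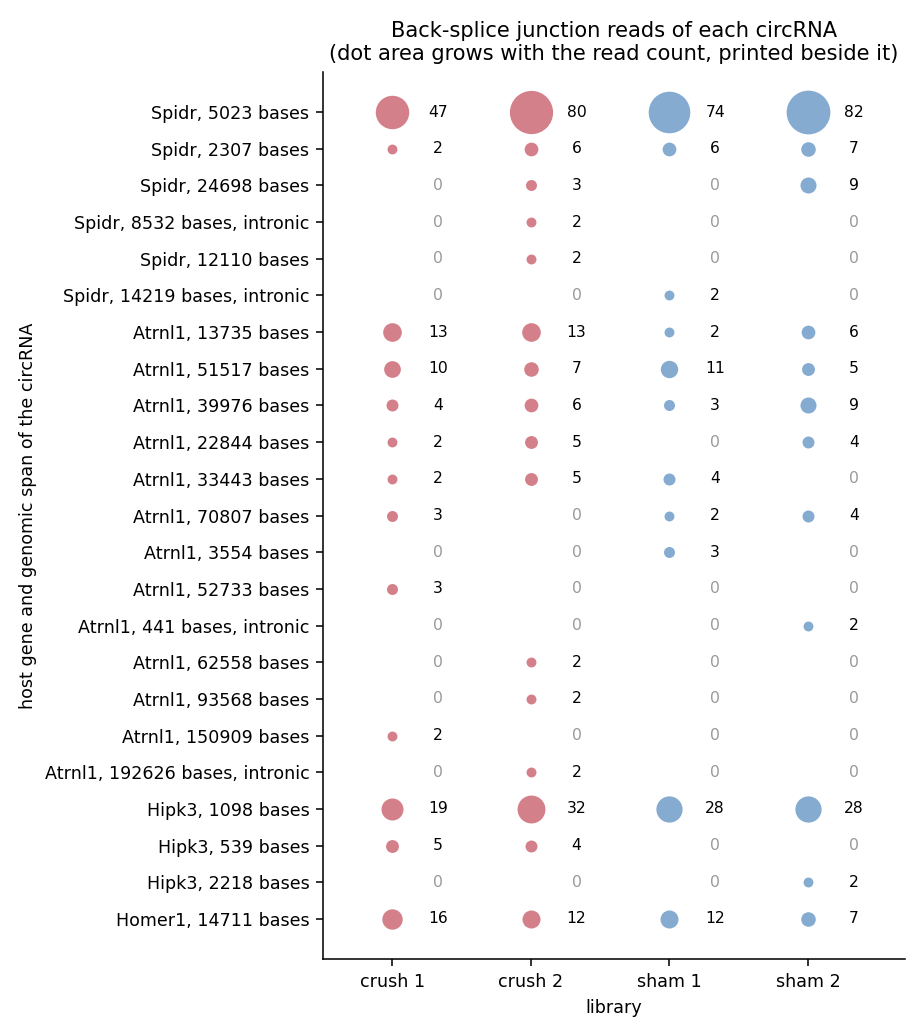
Back-splice junction reads of each of the 23 circRNAs (rows, named by host gene and genomic span) in the 4 libraries (columns), with the count beside each dot. The dominant circRNAs of Spidr and Hipk3 stood above the other circRNAs of their gene in every library, and the reads of Atrnl1 were spread over many rows.

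The dominant circRNA of Hipk3 was exonic and short. It lay on the minus strand of chromosome 3 of the build Rnor_6.0, at chr3:94396940-94398038, a span of 1098 bases, and 9.19% of exonic circRNAs had a smaller span. It ranked 21 of 4942 circRNAs by reads. It had 19 and 32 reads after crush, or 1.38 and 1.91 SRPBM, against 28 and 28 after sham, or 2.04 and 2.20 SRPBM. In SRPBM both crush libraries lay below both sham libraries, as did 37.1% of all tested circRNAs, but as a share of junction reads the groups overlapped. The fitted log2 change, crush over sham, was 0.08 ± 0.44 (SE, 95% interval -1.04 to 1.20, edgeR adjusted p = 0.949).

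A shorter exonic circRNA of Hipk3, at chr3:94397499-94398038 with a span of 539 bases, shared the acceptor of the dominant one and used a donor 559 bases upstream of its donor. It had 5 and 4 reads after crush and was listed at 0 in both sham libraries, so it was the 1 circRNA of the 23 (4.35%) called in both libraries of a group and in none of the other, a pattern of 8.07% of all circRNAs. Its crush mean of 0.301 SRPBM was 1.32 times a floor of 3 reads in each sham library. That ratio takes the crush counts of 5 and 4 as exact, so it is not a lower limit of the change. The 539-base circRNA did not reach the filter of the test. It met a filter of at least 2 reads in 2 libraries through the crush libraries alone, the group where it is high. Its adjusted p there, 0.135 (edgeR), is therefore no support for a difference. That value was also the smallest among the 1355 circRNAs tested at that filter, of which 0 passed. The shared acceptor took all Hipk3 reads of both crush libraries and of sham replicate 1, and 28 of 30 reads in sham replicate 2. The remaining 2 reads came from an exonic circRNA at chr3:94360855-94363073, seen in that library only.

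The share of Hipk3 reads on the dominant circRNA was lower after crush, at 79.2% (19 of 24 reads, 95% exact interval 57.8% to 92.9%) and 88.9% (32 of 36, 73.9% to 96.9%), against 100% (28 of 28, 87.7% to 100%) and 93.3% (28 of 30, 77.9% to 99.2%) after sham. The groups did not overlap but the intervals did. The exact permutation p was 0.33 (two-sided), the smallest that 2 against 2 libraries can give. How many host genes have top shares that separate the groups was not counted. The other crush reads were the 5 and 4 of the 539-base circRNA, so the lower share after crush restates those reads. Summed over its circRNAs, Hipk3 had 24 and 36 reads in crushed nerve against 28 and 30 in sham nerve. In SRPBM the sums were 1.95 ± 0.292 against 2.20 ± 0.226 SRPBM (SD, n = 2 each). The sham values lay within the range of the crush reads. The host gene's log2 change was 0.25 ± 0.41 (95% interval -0.75 to 1.25, edgeR adjusted p = 0.757).

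Homer1 gave a single exonic circRNA on the plus strand, at chr2:22950023-22964734, a span of 14711 bases. It had 16 and 12 reads after crush, or 1.16 and 0.718 SRPBM, against 12 and 7 after sham, or 0.874 and 0.551 SRPBM. The means were 0.939 ± 0.313 SRPBM after crush and 0.712 ± 0.229 after sham (SD, n = 2 each). Crush replicate 1 was the highest library and sham replicate 2 the lowest, and crush replicate 2 had as many reads as sham replicate 1, so the groups overlapped in SRPBM. The fitted log2 change was 0.78 ± 0.46 for the circRNA (95% interval -0.41 to 1.97, edgeR adjusted p = 0.376) and 0.78 ± 0.54 for the host gene (95% interval -0.53 to 2.09, edgeR adjusted p = 0.406). Both fits rest on the same reads, since the gene had a single circRNA. Both intervals take in a fall as well as a rise, which is more than 4-fold for the host gene only. At this depth neither fitted change could be told from no change. Without sham replicate 2 the host gene's log2 change was 0.41, and without crush replicate 2 it was 1.19.

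The dominant circRNA of Spidr was the most abundant of the 23 and ranked 6 of 4942. It was exonic, on the minus strand at chr11:89175425-89180448, with a span of 5023 bases. Crush libraries had 47 and 80 reads, or 3.41 and 4.78 SRPBM, and sham libraries had 74 and 82 reads, or 5.39 and 6.45 SRPBM. Crush replicate 1 was the low library, while crush replicate 2 had more reads than sham replicate 1. In SRPBM both crush libraries lay below both sham libraries, as did 37.1% of all tested circRNAs, but as a share of junction reads they overlapped. The log2 change was -0.09 ± 0.40 (SE, 95% interval -1.11 to 0.93, edgeR adjusted p = 0.938).

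Beside it, Spidr had 5 minor circRNAs in 3 stretches of the gene. An exonic one at chr11:89155750-89180448 used the same acceptor with a donor further downstream, and it had 0 and 3 reads in crushed nerve against 0 and 9 after sham. An intronic one at chr11:89175425-89183957 used the same donor with an acceptor further upstream, and it had 2 reads in crush replicate 2 only. A second circRNA was called in all libraries, at chr11:89108654-89110961, a span of 2307 bases with an acceptor 69487 bases downstream of the dominant one. It had 2 and 6 reads in crushed nerve against 6 and 7 in sham nerve. Both crush values lay below both sham values, as held for 37.1% of tested circRNAs in SRPBM and 32.0% as a share of junction reads. Crush replicate 2 and sham replicate 1 had 6 reads each, so their shares were almost equal. The log2 change of this circRNA was -0.48 ± 0.84 (95% interval -2.64 to 1.68, edgeR adjusted p = 0.819). An intronic circRNA at chr11:89096742-89110961 shared its acceptor and had 2 reads in sham replicate 1. The last, exonic at chr11:89024278-89036388, had 2 reads in crush replicate 2.

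The dominant circRNA held 95.9% (47 of 49 reads, 95% exact interval 86.0% to 99.5%) and 86.0% (80 of 93, 77.3% to 92.3%) of Spidr reads after crush, against 90.2% (74 of 82, 81.7% to 95.7%) and 83.7% (82 of 98, 74.8% to 90.4%) after sham. The groups overlapped (exact permutation p = 0.667, two-sided). The host sum was 49 and 93 reads in crushed nerve against 82 and 98 in sham nerve. In SRPBM the sums were 4.56 ± 1.42 against 6.84 ± 1.23 SRPBM (SD, n = 2 each). Its difference of -33.4% in SRPBM was the largest of the 4 genes. With library totals taken from SRPBM its fitted log2 change, -0.58, was also the largest of the 4 in size (edgeR adjusted p = 0.311). With the scaling of the test it was the smallest of the 4. In SRPBM both crush libraries lay below both sham libraries, as did 35.9% of all tested host genes. As a share of junction reads the groups overlapped, with 0.594% and 1.03% against 0.909% and 1.12%. The fitted log2 change was -0.15 ± 0.37 (95% interval -1.03 to 0.73, edgeR adjusted p = 0.846), and crush replicate 1 set its sign, since it was 0.32 without that library.

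**Figure D3:**
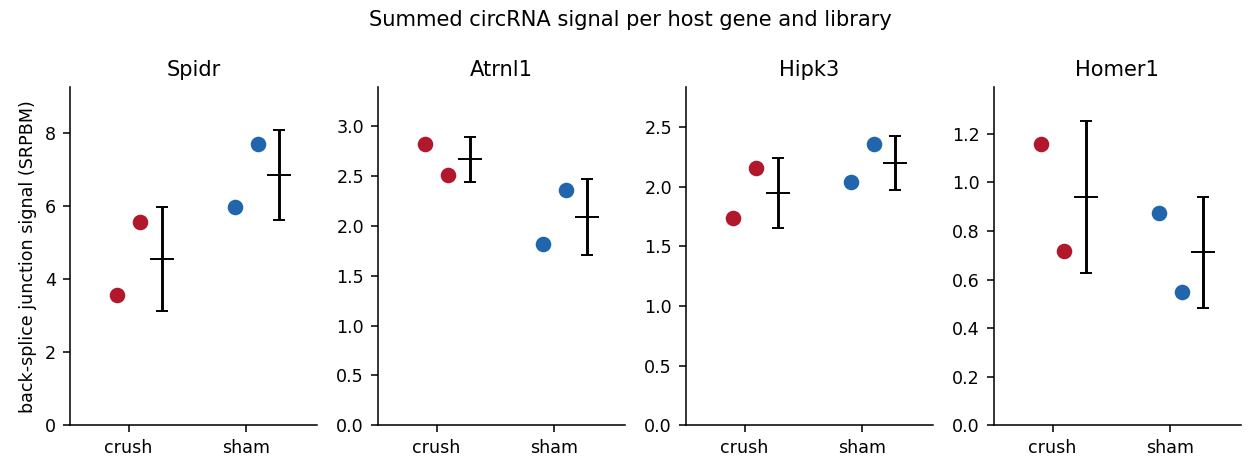
Junction reads summed over the circRNAs of each host gene, in SRPBM, with 1 point per library (crush left, sham right) and the mean ± SD of 2 libraries as a bar. The crush points of Atrnl1 lay above its sham points, those of Spidr lay below, and those of Hipk3 and Homer1 overlapped.

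Atrnl1 was the gene with the richest set, 13 circRNAs from 6 acceptors and 7 donors on the plus strand of chromosome 1, and 16 of 2327 host genes (0.688%) had 10 or more. No circRNA stood clear of the others. By reads the first was at chr1:278580846-278594581, a span of 13735 bases, with 34 reads over the 4 libraries, 1 more than that at chr1:278698312-278749829, a span of 51517 bases. By mean SRPBM the order was the reverse, 0.584 against 0.585. A further circRNA called in every library lay at chr1:278580846-278620822, a span of 39976 bases, with 22 reads.

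The 13735-base circRNA showed the largest difference of the 7 tested. It had 13 and 13 reads after crush, or 0.943 and 0.777 SRPBM, against 2 and 6 after sham, or 0.146 and 0.472 SRPBM. Every crush value was above every sham value on both scales, as held for 24.5% of tested circRNAs in SRPBM and 26.9% as a share of junction reads. Means were 0.860 ± 0.117 after crush and 0.309 ± 0.231 SRPBM after sham (SD, n = 2 each). The log2 change was 1.87 ± 0.65 (SE, 95% interval 0.20 to 3.54), with an unadjusted p of 0.0346 and an adjusted p of 0.142 (edgeR), so it did not pass, and 27.8% of tested circRNAs had an unadjusted p below 0.05. The value leaned on sham replicate 1, with 1.16 without that library and 2.78 without sham replicate 2.

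The other tested circRNAs of Atrnl1 had smaller fitted changes. The 51517-base circRNA had 10 and 7 reads in crushed nerve against 11 and 5 in sham nerve, with a log2 change of 0.32 ± 0.60 (95% interval -1.21 to 1.84, edgeR adjusted p = 0.834). The 39976-base circRNA, which shared its acceptor with the 13735-base one, had 4 and 6 reads in crushed nerve against 3 and 9 in sham nerve, with a log2 change of -0.07 ± 0.89 (95% interval -2.34 to 2.20, edgeR adjusted p = 0.976). Both overlapped between the groups, and their wide intervals reach into that of the 13735-base circRNA, so the circRNAs of the gene were not shown to differ in their change.

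Grouped by acceptor, Atrnl1 reads came mostly from 3 sites. The first acceptor, position 278580846, served 4 circRNAs and took 48.7% (95% exact interval 32.4% to 65.2%) and 50.0% (34.2% to 65.8%) of the gene's reads after crush, against 20.0% (6.83% to 40.7%) and 50.0% (31.3% to 68.7%) after sham. Sham replicate 1 was low and sham replicate 2 equalled crush. The acceptor at position 278698312 served 3 circRNAs and showed the opposite order, with 30.8% and 28.6% after crush against 72.0% (50.6% to 87.9%) and 16.7% (5.64% to 34.7%) after sham. The acceptor at position 278679022, also with 3 circRNAs, took 20.5% and 11.9% against 8% and 26.7%. For each of these sites the sham replicates differed from each other by more than the crush replicates did.

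Among donors, position 278749829 served 4 circRNAs and took 13 and 11 reads in crushed nerve against 13 and 9 after sham, and position 278731755 served 3 circRNAs and took 7 and 5 against 4 and 0. The 9 circRNAs from acceptors after the first summed to 20 and 21 reads in crushed nerve against 20 and 15 after sham. The 4 from the first acceptor summed to 19 and 21 against 5 and 15. Of these reads the 13735-base circRNA held 13 and 13 against 2 and 6. The 39976-base circRNA, with 4 and 6 against 3 and 9, overlapped between the groups. How many acceptors of all genes separate the groups in this way was not counted. The span of exonic circRNAs of Atrnl1 reached 150909 bases, larger than that of 99.7% of exonic circRNAs, in a circRNA with 2 reads in crush replicate 1 that joined the first acceptor to the donor at 278731755. The 2 intronic circRNAs had spans of 441 and 192626 bases and 2 reads each, the shorter in sham replicate 2 and the longer in crush replicate 2.

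The share of Atrnl1 reads on the 13735-base circRNA was 33.3% (13 of 39, 95% exact interval 19.1% to 50.2%) and 31.0% (13 of 42, 17.6% to 47.1%) after crush, against 8% (2 of 25, 0.984% to 26.0%) and 20.0% (6 of 30, 7.71% to 38.6%) after sham (exact permutation p = 0.33, two-sided). The groups did not overlap, but every crush interval overlapped both sham intervals. The 13735-base circRNA was picked as dominant by its reads in these same libraries, 34 against 33 for the 51517-base circRNA. Of those 34 reads 26 came from crush, so its higher share after crush is not independent of the choice. For the 51517-base circRNA, first by mean SRPBM, the difference was -9.18 percentage points. How many host genes have top shares that separate the groups was not counted. The gene's sum was 39 and 42 reads in crushed nerve against 25 and 30 in sham nerve. In SRPBM the sums were 2.67 ± 0.224 against 2.09 ± 0.381 SRPBM (SD, n = 2 each), a difference of 27.7%. Both crush libraries lay above both sham libraries, as did 25.3% of tested host genes in SRPBM. The log2 change was 0.76 ± 0.39 (95% interval -0.17 to 1.69, edgeR adjusted p = 0.263), and it was 0.42 without sham replicate 1. Sham replicate 1 was thus the library with the fewest reads of both the gene and its 13735-base circRNA. Apart from the 13735-base circRNA the gene had 26 and 29 reads in crushed nerve against 23 and 24 after sham.

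None of the 4 host genes passed the host gene test (edgeR quasi-likelihood test with Benjamini-Hochberg adjustment over 434 host genes, threshold 0.05), where 2.30% of all tested host genes passed (1.84% as higher and 0.461% as lower after crush) and 25.6% had an unadjusted p below 0.05. None of the 4 had an unadjusted p below 0.05 either, the smallest being 0.0921 for Atrnl1. None of the 7 circRNAs passed the circRNA test, where 11.9% of 428 tested circRNAs passed (7.48% as higher and 4.44% as lower after crush). The absence of a call says little of small changes: the 95% intervals of the host genes ran from -1.03 for Spidr to 2.09 for Homer1 on the log2 scale. They were narrow for this series, least so for Homer1. The standard errors of Spidr, Atrnl1, Hipk3 and Homer1 were larger than those of 1.84%, 2.30%, 3.23% and 15.4% of tested host genes. The median host gene had a log2 change of 0.11 with the scaling of the test and -0.30 with library totals taken from SRPBM. Relative to that median, Homer1 lay at 0.66 and 0.68, Atrnl1 at 0.65 and 0.65, Hipk3 at 0.13 and 0.12, and Spidr at -0.27 and -0.28 under these 2 scalings, so the order of the genes held while the sign of Hipk3 against 0 did not.

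**Figure D4:**
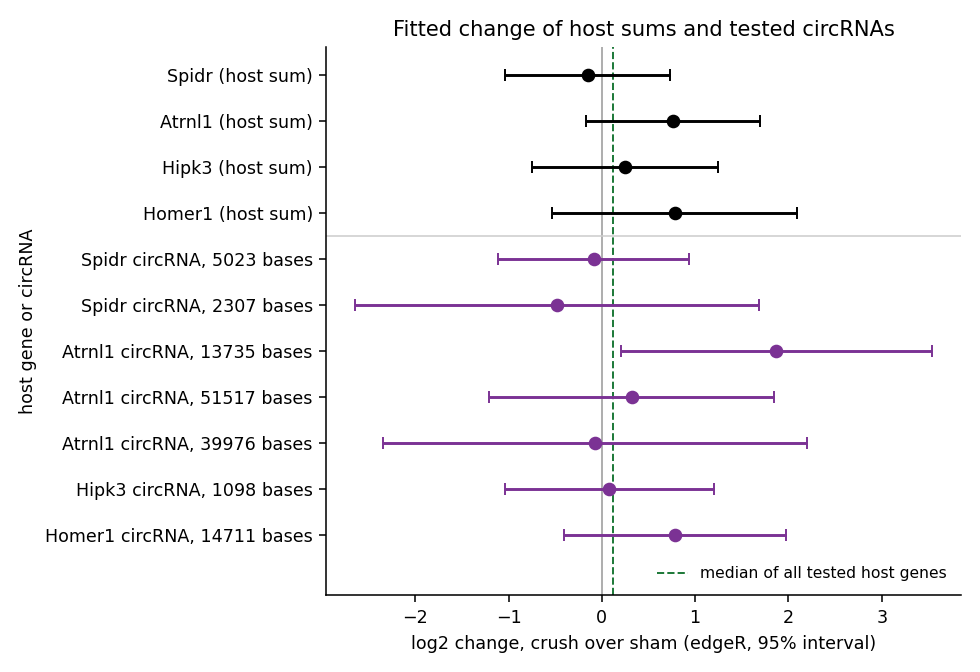
Fitted log2 change, crush over sham, with its 95% interval (edgeR) for the 4 host sums (black) and the 7 tested circRNAs (purple), and the median of 434 tested host genes as a dashed line. Every interval but that of the 13735-base circRNA of Atrnl1 takes in 0, and that circRNA did not pass after adjustment.

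Relatives and partners of these genes gave few circRNAs in the nerve. Of 6 paralogs, Hipk4, Homer2 and Homer3 had none, Hipk1 and Atrn had 2 reads each in sham replicate 1, and Hipk2, another kinase of the family, had 0 and 2 reads in crushed nerve against 0 and 3 after sham. Of 12 binding partners of Homer proteins 10 had none, and the others were the synaptic scaffold gene Shank3 (3 and 0 reads after crush, 0 after sham) and the calcium release channel gene Ryr1 (0 and 2 after crush, 0 after sham). Of 7 genes that work with Spidr in recombination, 6 had none and Blm had 0 and 0 reads in crushed nerve against 2 and 4 after sham. None of these genes had enough reads to be tested.

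Other widely reported circRNA hosts gave values on both sides. Of 40 such genes 26 had reads and 16 were tested, of which 8 were higher and 8 lower after crush. Their median log2 change was 0.36, against 0.11 over all 434 tested host genes. Of the 16, Nfix, a nuclear factor I transcription factor gene, passed as lower (67 and 106 reads in crushed nerve against 265 and 348 after sham, edgeR adjusted p = 0.0490), as did 0.461% of all tested host genes. The other 15 did not pass. Of these Cdyl came nearest, in the other direction, with 35 and 49 reads in crushed nerve against 9 and 10 after sham (edgeR adjusted p = 0.0522). After Nfix, the next by reads were Arid1a, a chromatin remodeller gene, with 68 and 96 against 0 and 44, Gigyf2, a gene of translational repression, with 36 and 37 against 69 and 61, and Rere, a transcriptional corepressor gene, with 15 and 32 against 34 and 27.

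The host genes most like each of the 4 were found by the root mean square difference of log2 CPM over the 4 libraries, each gene centred on its own mean, among 433 other tested hosts. For Atrnl1 they included Arhgap26 (0.035) and Pan3 (0.075). Pan3, a deadenylase subunit gene, had 79 and 79 reads in crushed nerve against 50 and 66 after sham. For Hipk3 they were Tesk2 (0.062), Canx (0.116) and Wdr33 (0.126), of which Canx had 12 and 21 reads against 16 and 14. For Homer1 they were Cul3 (0.085), Rapgef2 and Rnf13 (0.098 each), with at most 9 reads in a library. For Spidr they were Xpo1 (0.091), Osbpl9 (0.116) and Anapc7 (0.125), and Osbpl9 had 8 and 18 reads against 12 and 16. With 4 libraries and so few reads, such likeness is a description of these libraries only.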

How the data were processed

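Per library, the authors deposited a raw count of back-splice junction reads for every circRNA, and SRPBM, a signal equal to the count times 1 constant per library, per the file headers and values. Per the submitters' processing notes, CASAVA 1.8, BWA, edgeR and the build Rnor_6.0 were used, with roles unstated. The circRNA caller and the base convention of the coordinates are not given in the sources used here. Acceptor and donor were read from the strand, and span is end minus start, introns included.

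CircRNAs, and host genes as sums over circRNAs with 1 host, were tested with edgeR 4.0.16 in R 4.3.3 (glmQLFit and glmQLFTest, TMM scaling, library sizes over tested features, two-sided, Benjamini-Hochberg over all tested), if they had at least 5 reads in at least 2 libraries. Standard errors come from the change and its F statistic. Shares have 95% Clopper-Pearson intervals. Intervals and the floor of 3 reads cover counting error only. Replicates differed beyond counting noise (chi-square over degrees of freedom 2.81 in crush and 3.65 in sham).

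The 4 genes, lists and tests were chosen with earlier results of these data known. The text names the 4 hosts, every circRNA with at least 5 reads in 2 libraries and the dominant one of each host, listed paralogs and partners, the 4 other widely reported hosts with the most reads and any that passed, and the 3 most alike hosts. Some genes that this rule or the marker lists name are not reported here. Minor circRNAs of Hipk3 and Spidr, some of Atrnl1 and the host Cdyl were named after their values were seen, as were the sums by acceptor and donor and the comparison of top shares over 98 hosts. Alternatives were scaling, count filter, DESeq2, replicate block, exonic circRNAs only, and leaving out each library.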

Additional observations from a re-analysis of the deposited data

How the results depend on the processing

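None of the 4 host genes and none of the 7 tested circRNAs passed the threshold under any alternative that could test it. The adjusted p ranged from 0.213 to 0.703 for Atrnl1, 0.286 to 0.796 for Homer1, 0.311 to 0.957 for Spidr, 0.648 to 0.993 for Hipk3 and 0.0545 to 0.714 for the 13735-base circRNA of Atrnl1. Over all features the number past the threshold moved far more, from 10 host genes to 0 at a filter of 2 reads in 2 libraries, 44 at 10 reads, 39 with no filter, 37 with DESeq2, 20 with exonic circRNAs only, 0 with unnamed circRNAs added, 0 without crush replicate 2 and 84 without sham replicate 2. The 51 circRNAs became 0 at a filter of 2 reads, 23 at 10 reads, 10 with DESeq2, 6 without either crush library and 76 without sham replicate 1.

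The labels do not say whether libraries with the same number share an origin. Deviations of same-numbered libraries correlated at -0.06 over host genes and -0.11 over circRNAs, and 2 pairs cannot settle the question. With a replicate block 24 host genes and 0 circRNAs passed (Atrnl1 0.77, Homer1 0.80, Hipk3 0.23, Spidr -0.19 on the log2 scale), and with crossed numbers, an alternative chosen after seeing the data, 0 and 0. Library sizes over all features, also added, gave 14 host genes and 51 circRNAs. With SRPBM library totals 8 host genes passed as higher and 6 as lower after crush, against 8 and 2, and 31 circRNAs as higher and 28 as lower, against 32 and 19.

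Signs turned for log2 changes that ran from -0.48 (2307-base circRNA of Spidr) to 0.32 (51517-base circRNA of Atrnl1) in the main fit, with the cause not tested. SRPBM library totals gave -0.17 for Hipk3, -0.36 for its 1098-base circRNA and -0.0866 for the 51517-base circRNA of Atrnl1. The 39976-base circRNA turned to 0.0643 with the replicate block and 0.0648 with crossed numbers. Leaving out 1 library gave log2 changes of -0.0199 to 0.58 for Hipk3, -0.49 to 0.32 for Spidr, 0.41 to 1.19 for Homer1 and 0.42 to 0.94 for Atrnl1. For circRNAs it gave -0.18 to 0.44 (Hipk3, 1098 bases), -0.35 to 0.28 (Spidr, 5023), -1.28 to 0.13 (Spidr, 2307), -0.77 to 0.24 (Atrnl1, 39976) and -0.20 to 0.81 (Atrnl1, 51517).

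The log2 ratio of mean shares of junction reads was 0.08 for Hipk3 (-0.17 to 0.29 with 1 library left out, -0.18 in SRPBM) and -0.32 for Spidr (-0.77 to 0.0198, -0.59 in SRPBM). It was 0.59 for Atrnl1 (0.45 to 0.76, 0.35 in SRPBM), 0.62 for Homer1 (0.30 to 1.03, 0.40 in SRPBM) and 0.02 for all 4 (-0.18 to 0.20, -0.23 in SRPBM). The share of the dominant circRNA was 18.1 percentage points higher after crush for Atrnl1 (12.1 to 24.1 with 1 library left out), and -9.18 for the circRNA first by mean SRPBM, a choice added after seeing the data. It was -12.6 for Hipk3 (-17.5 to -7.78) and 4.01 for Spidr (-0.94 to 8.96). Junction reads of 7 to 98 per gene and library limit all these values.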
